A study of Mus musculus with 300 samples.

Results

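Etv5, Etv4 and Bcl6b encode transcription factors whose transcripts rise when cultured mouse spermatogonia are given glial cell line-derived neurotrophic factor (GDNF). They were read here as 3 of 23354 gene names in single-cell RNA-seq of 300 adult mouse spermatogonia, and were taken by gene name. Every cell was an untreated adult testis cell sorted as bright for the surface protein CD9 and positive for an ID4-EGFP reporter, in which EGFP marks the activity of the Id4 locus. Cells were captured singly on Fluidigm C1 chips, and the measured EGFP brightness of each cell placed it in quartile Q1 (brightest, 79 cells), Q2 (78 cells), Q3 (71 cells) or Q4 (dimmest, 72 cells). The cells came from 4 preparations of 67, 82, 71 and 80 cells, each made from pooled testes of more than 1 mouse, so that every quartile of every preparation held 15 to 22 cells. All 4 quartiles carry the same reporter and the same sort gate, so that no reporter-negative or CD9-dim cell stands beside them, and an age beyond adult and a strain are not given in the sources used here.

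In the mouse testis GDNF is made by somatic cells and binds the co-receptor GFRA1 on undifferentiated spermatogonia, which brings in the receptor tyrosine kinase RET. RET signals through SRC family kinases, the PI3K and AKT pathway and the RAS to ERK cascade, and fibroblast growth factor receptors feed the same cascade. ETV5 and ETV4 belong, with ETV1, to the PEA3 group of ETS factors, which bind DNA through a shared ETS domain and are common transcriptional outputs of RET and FGF signalling. Mice without Etv5 lose their spermatogonial stem cells with age, and BCL6B, a BTB zinc finger repressor related to BCL6, is needed for full stem cell maintenance in culture and in transplantation.

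On build GRCm38 (GENCODE M21 annotation) Etv5 lies on the minus strand of chromosome 16, from 22381309 to 22439719. Etv4 and Bcl6b both lie on the minus strand of chromosome 11, Etv4 from 101769742 to 101785371 and Bcl6b from 70224128 to 70229798. No other annotated gene overlaps any of the 3. Since Etv5 and Etv4 are close relatives, the stretch of coding sequence around their longest identical run is shown, as it bears on whether reads of one could be counted as the other. It lies in the part that codes for the ETS domain, runs over coding bases 1291 to 1433 in Etv5 (of 1584) and 1162 to 1304 in Etv4 (of 1458), and is written 5′ to 3′ on the coding strand with the 18 differing bases in capitals.
Etv5: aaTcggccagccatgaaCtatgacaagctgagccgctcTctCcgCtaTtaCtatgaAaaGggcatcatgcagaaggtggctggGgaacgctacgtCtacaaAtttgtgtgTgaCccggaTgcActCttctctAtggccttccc
Etv4: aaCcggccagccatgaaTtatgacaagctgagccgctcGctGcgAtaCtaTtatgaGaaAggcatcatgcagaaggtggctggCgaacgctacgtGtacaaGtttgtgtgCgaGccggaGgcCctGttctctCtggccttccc
The pair was identical at 125 of these 143 bases (87.4%), with no identical run longer than 23 bases, and neither gene shared a run of more than 13 bases with the Bcl6b coding sequence. No 50-base stretch of the Etv4 or Bcl6b transcripts occurred in a transcript of any other gene. By contrast 1053 of 4291 such stretches of the Etv5 transcripts also occurred in Gm4798, a processed pseudogene on the plus strand of chromosome 10 (71704290 to 71705988). Gm4798 was not analysed here, and reads from it could not be told apart from Etv5 reads over those stretches.

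Etv5 was the most widely detected of the 3 genes and the one with the clearest relation to EGFP brightness. Counting a cell as detecting a gene when its value reached 1 FPKM (fragments per kilobase of transcript scaled to library size, the deposited unit), Etv5 was detected in 216 of 300 cells (72%), Bcl6b in 100 cells (33.3%) and Etv4 in 62 cells (20.7%). Etv5 rose from dim to bright cells both in the share of cells that held it and in its level within those cells. Etv4 and Bcl6b were also found in more of the bright cells, with much smaller differences that did not pass the adjustment over all genes tested.

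**Figure D1:**
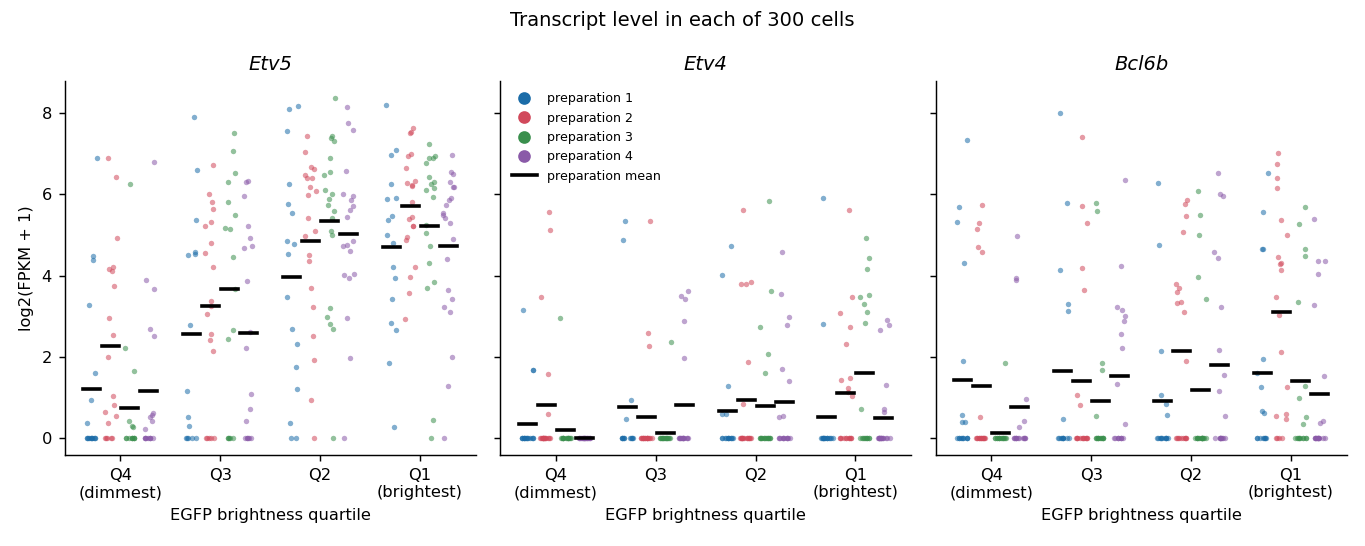
Each point is 1 cell, placed by EGFP quartile (x axis, dimmest to brightest) and log2(FPKM + 1) (y axis), coloured by preparation; black bars are preparation means. The Etv5 means climb from 0.74 to 2.27 in Q4 up to 4.71 to 5.71 in Q1, whereas most cells of every quartile sit at 0 for Etv4.

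In Q1 cells Etv5 ran from 0 to 291 FPKM with a median of 43.3, and 75 of 79 cells detected it. In Q2 it ran from 0 to 329 FPKM with a median of 41.9, in 71 of 78 cells. In Q3 the median was 7.26 FPKM, the highest cell had 239 FPKM, and 46 of 71 cells detected the gene. The dimmest quartile was the lowest: 24 of 72 Q4 cells detected Etv5, the median was 0.223 FPKM, and the highest cell had 119 FPKM. Another 14 cells of Q4 held a value above 0 but under 1 FPKM, against 2 in Q1, 2 in Q2 and 4 in Q3. Values of 100 FPKM or more were found in 14 cells of Q1, 14 of Q2, 4 of Q3 and 3 of Q4.

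The mean log2(FPKM + 1) of Etv5 in preparations 1 to 4 was 4.71, 5.71, 5.22 and 4.72 in Q1 and 3.96, 4.85, 5.35 and 5.03 in Q2. It was 2.55, 3.25, 3.66 and 2.58 in Q3 and 1.22, 2.27, 0.74 and 1.15 in Q4. The 4 preparations of Q1 and Q2 overlapped with each other and all lay above those of Q3, and every Q3 value lay above every Q4 value. Averaged over preparations the levels were 5.09 ± 0.47, 4.80 ± 0.59, 3.01 ± 0.54 and 1.35 ± 0.65 from Q1 to Q4 (SD, n = 4). In linear FPKM the Q1 mean was 6.09 times the Q4 mean, and within single preparations 4.64 to 11.5 times. On the log2(FPKM + 1) scale, which understates changes of low values, Q1 exceeded Q4 by 3.74 (SE 0.37, limma adjusted p = 7.33e-07), higher in 4 of 4 preparations by 3.44 to 4.48. Over all genes tested in this comparison 2.72% were called higher in Q1 (adjusted p under 0.05). The slope over the 4 quartiles was 1.30 per quartile towards brighter cells (SE 0.12, limma adjusted p = 1.52e-07), against a median slope of 0.03 over the 10411 genes tested and with 3.55% of them called higher in brighter cells. By size of slope Etv5 ranked 4 of 10411, and by p it ranked 2.

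The estimated steps between neighbouring quartiles were not equal, but the contrast made between steps did not pass the adjustment. Between Q2 and Q3 Etv5 differed by 1.79 (SE 0.37, limma unadjusted p = 5.55e-05, adjusted p = 0.164) and between Q3 and Q4 by 1.67 (SE 0.37, limma unadjusted p = 0.00013, adjusted p = 0.270), each higher on the brighter side in 4 of 4 preparations. Between Q1 and Q2 the difference was 0.29 (SE 0.37, limma adjusted p = 0.971), higher in Q1 in 2 of 4 preparations, with a 95% interval from -0.47 to 1.05. No single step passed the adjustment for Etv5, and these comparisons called 0.0192%, 0% and 0.00961% of all genes from the brightest step to the dimmest (2, 0 and 1 genes, with 597, 767 and 685 genes at an unadjusted p under 0.05). The Q1 to Q2 step minus the Q3 to Q4 step was -1.37 (SE 0.52, limma unadjusted p = 0.0145, adjusted p = 0.780), a contrast added after the values were seen. Without preparation 3 it was -0.81 (limma unadjusted p = 0.170), and without preparation 4 it was -1.25 (limma unadjusted p = 0.0646).

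Separating detection from level, the share of cells with Etv5 was 94.1, 100, 89.5 and 95.5% in the 4 preparations of Q1 and 82.4, 90.5, 95 and 95% in Q2. It was 53.3, 75, 70.6 and 57.9% in Q3 and 27.8, 55, 20 and 26.3% in Q4. Q1 and Q2 again lay above Q3 in every preparation, while preparation 2 kept Etv5 in more of its Q4 cells than preparation 1 did in Q3. The share rose by 21.4 percentage points per quartile towards brighter cells (exact permutation of quartile labels within preparations, two-sided p = 1.81e-05, adjusted over 10411 genes p = 0.0139), and 1.04% of all genes passed that adjusted test in this direction. Within the cells that detected it, the mean log2 FPKM of Etv5 was 4.90, 5.66, 5.77 and 4.84 in the brightest quartile and 4.62, 5.24, 5.57 and 5.22 in the next. It was 4.51, 4.22, 5.11 and 4.19 among Q3 cells and 3.95, 3.70, 3.07 and 3.76 among Q4 cells. All 4 preparations of Q4 thus lay below every preparation of the other quartiles, which overlapped among themselves. This level rose by 0.57 per quartile (exact permutation, two-sided p = 3.62e-05, adjusted over 5984 genes p = 0.0481). Only 0.0836% of the genes tested for level passed the adjusted test in this direction. They were 5 genes, chosen here after their values were seen: Etv5, Mt1 (a metallothionein), Ppp1ca (a protein phosphatase catalytic subunit), Med13l (a Mediator kinase module subunit) and Tcl1 (a co-activator of AKT), with slopes of 0.57, 0.19, 0.21, 0.42 and 1.19.

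**Figure D2:**
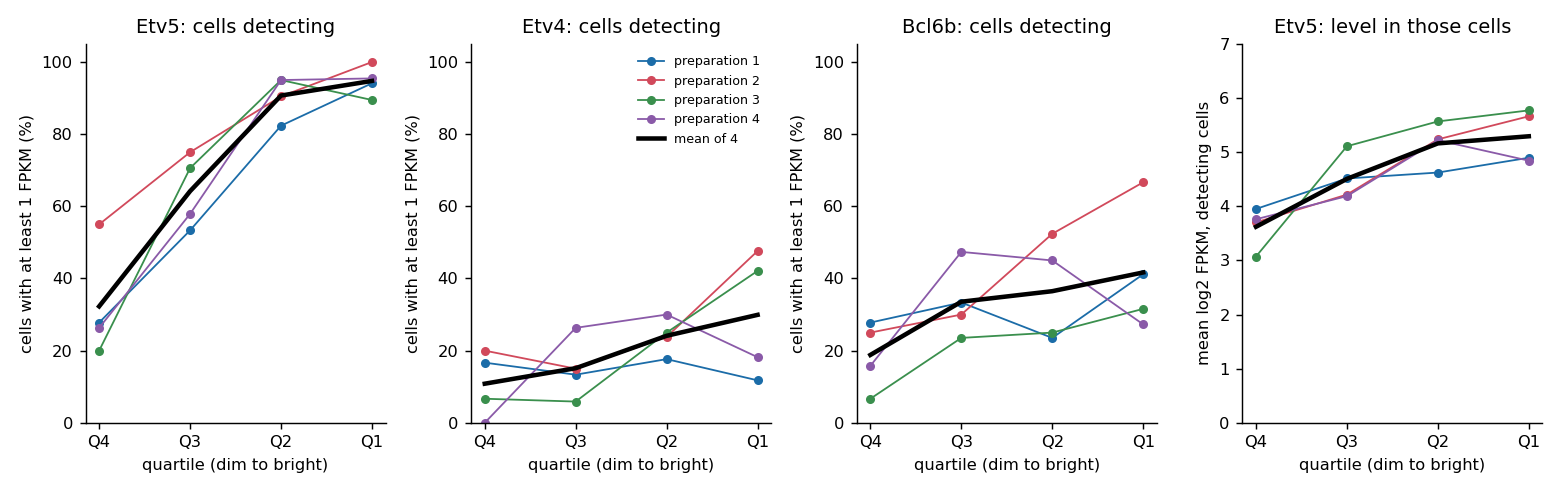
The first 3 panels give the percentage of cells with at least 1 FPKM (y axis) by quartile from dim to bright (x axis) for each gene, 1 thin line per preparation and the mean of 4 in black; the last panel gives the mean log2 FPKM of Etv5 in the cells that detected it. The Etv5 lines run from 20 to 55% in Q4 to 89.5 to 100% in Q1, and the lines of Etv4 and Bcl6b cross.

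Etv4 was found in few cells of any quartile, 24 of 79 in Q1, 19 of 78 in Q2, 11 of 71 in Q3 and 8 of 72 in Q4, and its highest value was 58.9 FPKM. Its share of cells in preparations 1 to 4 was 11.8, 47.6, 42.1 and 18.2% in Q1 and 17.6, 23.8, 25 and 30% in Q2. It was 13.3, 15, 5.88 and 26.3% in Q3 and 16.7, 20, 6.67 and 0% in Q4. The groups overlapped: preparations 2 and 3 were high in Q1 alone, preparation 1 was nearly flat, and 0 of 19 Q4 cells of preparation 4 detected Etv4, which allows a share of up to 15.8% (3 counts of the total, counting error only). The slope of the share was 6.62 points per quartile (exact permutation, two-sided p = 0.0174, adjusted over 10411 genes p = 0.227), and it was 5.78 points without preparation 2 (exact p = 0.0796) and 4.65 points without preparation 3 (exact p = 0.134). An unadjusted exact p under 0.05 in this direction was reached by 11.2% of all genes. In mean log2(FPKM + 1), Q1 stood 0.59 above Q4 (SE 0.25, limma adjusted p = 0.216), higher in 4 of 4 preparations. Preparation 3 alone gave 1.40 and the others 0.15 to 0.50, and without preparation 3 the difference was 0.32 (limma adjusted p = 0.661). Among the cells that detected Etv4 the median stayed between 6.28 FPKM (Q1) and 10.7 FPKM (Q2), with 9.83 FPKM for Q3 and 7.33 FPKM for Q4, and such cells were too few for a test of level.

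Bcl6b was found in 33 of 79 cells in Q1, 29 of 78 in Q2, 24 of 71 in Q3 and 14 of 72 in Q4. Across preparations 1 to 4 its share was 41.2, 66.7, 31.6 and 27.3% in Q1 and 23.5, 52.4, 25 and 45% in Q2. It was 33.3, 30, 23.5 and 47.4% in Q3 and 27.8, 25, 6.67 and 15.8% in Q4. Preparation 2 was the highest in Q1 and Q2, preparation 4 the highest in Q3, and Q1 and Q4 overlapped between preparations although Q1 was above Q4 within each of the 4. The slope was 7.15 points per quartile (exact permutation, two-sided p = 0.0152, adjusted over 10411 genes p = 0.209), and it was 4.62 points without preparation 2 (exact p = 0.123) and 7.00 points without preparation 3 (exact p = 0.0652). Over the 4 preparations Q1 cells averaged a log2(FPKM + 1) of 1.80 ± 0.90 (SD), and Q4 cells averaged 0.91 ± 0.60. The gap was 0.90 (SE 0.34, limma adjusted p = 0.162), and 0.59 without preparation 2 (limma adjusted p = 0.499). Cells that held Bcl6b held a good deal of it in every quartile, with medians of 19.5, 14.5, 10.2 and 27.7 FPKM from Q1 to Q4, and the highest single value, 256 FPKM, was in a Q3 cell.

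The slope of mean log2(FPKM + 1) was larger for Etv5 than for Etv4 by 1.10 per quartile (exact permutation, two-sided p = 9.04e-05) and larger than for Bcl6b by 1.02 (exact permutation, two-sided p = 4.82e-05). Etv4 and Bcl6b differed by -0.08 (exact permutation, two-sided p = 0.453). These 3 pairs were the ones compared, and the values are unadjusted. The scale compresses changes among low values, and Etv4 and Bcl6b were at 0 in most cells.

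The number of genes detected per cell, the measure of depth used here, moved slightly with brightness, from a mean of 5356 ± 810 in Q4 to 5687 ± 697 in Q1 (SD over 4 preparations), and it was tested only as a covariate of the 16 means. In Q4 the cells with Etv5 had a median of 5016 genes detected and the cells without it 5426. In Q3 these medians were 5222 and 5714. They pool preparations whose means ran from 4368 genes per cell (preparation 1) to 6216 (preparation 4). For Etv4 in Q1 the order was the other way, with 6250 genes in cells with it and 5598 in cells without, and for Bcl6b in Q1 the medians were 5921 and 5753. With that covariate the Q1 against Q4 difference was 3.64 for Etv5 (limma adjusted p = 0.000112), 0.60 for Etv4 (limma adjusted p = 0.453) and 0.52 for Bcl6b (limma adjusted p = 0.685), the last down from 0.90. The Bcl6b slope went from 0.28 to 0.16 (limma unadjusted p = 0.232).

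The 11 spermatogonia markers summed, over preparations, to 2353 to 2700 FPKM in Q1 and 2568 to 3299 FPKM in Q4. The sum joins markers that went opposite ways. In the limma slope 2 of the 11 rose and 2 fell after adjustment. At an unadjusted p under 0.05 in limma 4 rose and 4 fell. Markers of other testis cell types were present in some cells. Of 10 Sertoli cell markers, Sox9, Rhox5 and Clu were each in 22 of 300 cells and Wt1 in 18. At 1 FPKM 91 cells held at least 1 of the list. Fshr and Cldn11 were in 0 of 300 cells, which allows a share of up to 1% for each. No cell held 3 or more of the list at 5 FPKM. The summed Sertoli markers ran over preparations from 0.514 to 8.46 FPKM in Q1, 5.16 to 16.4 in Q2, 18.9 to 43.3 in Q3 and 3.67 to 23.6 in Q4. At that level 9 cells held 3 or more of 6 macrophage markers and 1 held 3 or more of 5 peritubular myoid markers, and 5 of these 10 cells detected Etv5. The summed macrophage markers varied widely between preparations, from 0.465 to 369.7 FPKM in Q1, 1.79 to 460.6 in Q2, 5.27 to 173 in Q3 and 12.3 to 116 in Q4. These 10 cells fell 1, 3, 2 and 4 into Q1 to Q4, and without them the slope of the Etv5 share was 21.8 points. Of 6 Leydig cell markers Star was in 36 cells, Insl3 in 4, Cyp11a1 in 1 and 3 were in no cell. Of the 6 endothelial markers Flt1 was in 65 cells and Esam in 0, and they summed to 5.71 to 10.2 FPKM in Q1 and 0 to 5.62 FPKM in Q4. The 6 spermatid markers summed to 61.1 to 99.8 FPKM in Q1 and 19.3 to 79.8 FPKM in Q4. Single markers of later germ cells were common, with Hspa2 in 173, Tnp1 in 153 and Ldhc in 81 of 300 cells, and the 6 pachytene markers summed to 16.1 to 44.4 FPKM in Q1 and 14.7 to 57.8 FPKM in Q4. Of the 1 Leydig, 1 endothelial, 3 macrophage, 3 pachytene and 5 spermatid markers tested for slope, 1 spermatid marker rose. The part of these transcripts in the result was not tested.

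Because Etv5 was so common, most cells with Etv4 or Bcl6b also held Etv5. Etv5 and Etv4 were detected together in 54 cells, where the product of their shares within each quartile and preparation, summed over these groups, came to 50.5. Etv5 and Bcl6b were together in 81 cells against 78.6, and Etv4 and Bcl6b in 22 cells against 24.5. The ratios of these counts to the summed products were 1.07, 1.03 and 0.900. Etv5 was in 75 of 79 Q1 cells and 71 of 78 Q2 cells, so its pairs had little room to depart from their shares there. Etv5 and Etv4 met in 23 cells against 22.9 in Q1 and 17 against 17.4 in Q2. They met in 10 against 6.92 in Q3 and 4 against 3.23 in Q4. For Etv5 and Bcl6b the counts were 15 against 15.2 in Q3 and 5 against 5.13 in Q4. Whether the genes were detected independently of each other was not tested. Pooled over quartiles and preparations, Etv4 was in 25% of cells with Etv5 and 9.52% of cells without it, and Bcl6b was in 37.5% and 22.6%. Only 4 cells of Q1 and 7 of Q2 lacked Etv5, and the order did not hold in every quartile. For Etv4 these shares were 23.9% and 28.6% in Q2, 21.7% and 4% in Q3 and 16.7% and 8.33% in Q4. For Bcl6b they were 32.6% and 36% in Q3 and 20.8% and 18.8% in Q4. Over all cells Bcl6b was in 35.5% of cells with Etv4 and 32.8% of cells without it. Spearman correlations of FPKM over the 300 cells, which share preparations and quartiles, were 0.16 for Etv5 and Etv4, 0.22 for Etv5 and Bcl6b and 0.03 for Etv4 and Bcl6b, as a description.

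**Figure D3:**
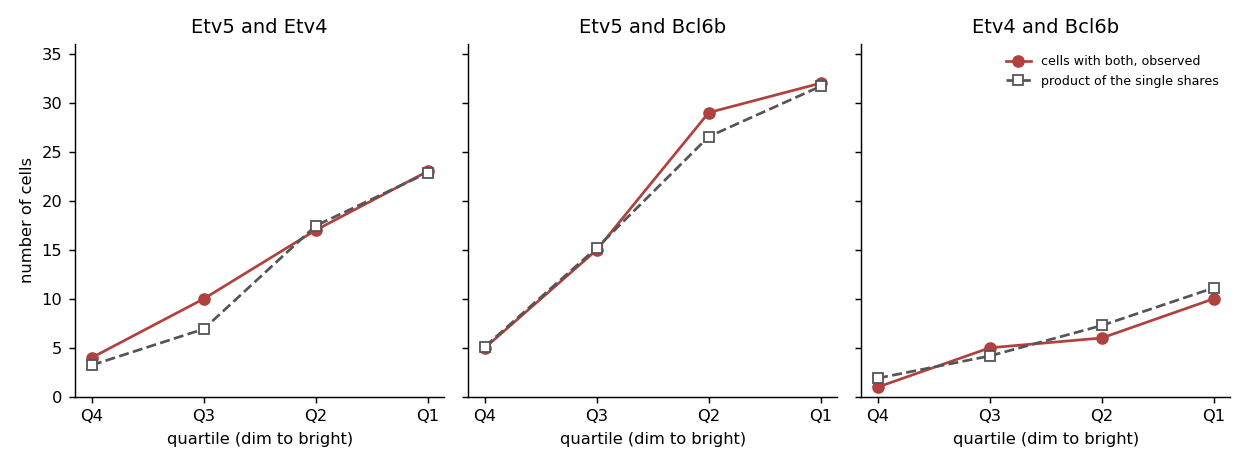
For each pair of genes the number of cells with both (red circles) is set beside the number that the product of their single shares gives within quartile and preparation (open squares), by quartile from dim to bright. The curves lie close together in all 3 pairs, and the largest gap of the first panel is in Q3, at 10 cells against 6.92.

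By quartile Etv5 and Etv4 were found together in 23, 17, 10 and 4 cells from Q1 to Q4, and the share of such cells rose by 7.75 points per quartile (exact permutation, two-sided p = 0.00136). Etv5 and Bcl6b were found together in 32, 29, 15 and 5 cells, a slope of 11.7 points (exact permutation, two-sided p = 0.000157). Both slopes contain the slope of Etv5 itself and are not independent of it. Etv4 and Bcl6b met in 10, 6, 5 and 1 cells, a slope of 3.28 points (exact permutation, two-sided p = 0.0431), and it was 1.68 points without preparation 2 (exact p = 0.311), 2.63 without preparation 3 (exact p = 0.186) and 3.66 without preparation 4 (exact p = 0.0602). In the 81 cells with both Etv5 and Bcl6b, the median of Etv5 was 48.5 FPKM, and in the 135 cells with Etv5 but no Bcl6b it was 29.2 FPKM. These medians pool quartiles and preparations, and 34 of the 81 cells came from preparation 2. Within the 81 cells the Spearman correlation of the 2 genes was 0.03, as a description.

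Counting all combinations, Etv5 alone was the most frequent state, in 101 cells, followed by Etv5 with Bcl6b in 61, none of the 3 in 59 and Etv5 with Etv4 in 34. All 3 were detected in 20 cells, of which 10 belonged to Q1, 6 to Q2 and 4 to Q3, and in Q4 the count of 0 of 72 cells allows a share of up to 4.17%. None of the 3 was detected in 2 cells of Q1, 5 of Q2, 16 of Q3 and 36 of Q4. Bcl6b without either ETS gene was seen in 17 cells, 8 of them in Q3 and 8 in Q4, and 7 of the 17 came from preparation 1. Cells without Etv5, the only ones that could be in this state, numbered 4, 7, 25 and 48 from Q1 to Q4. Etv4 with Bcl6b but no Etv5 was seen in 2 cells. Cells with all 3 had a median of 6060 genes detected, and cells with none 5549. These medians pool preparations of unlike depth. Preparation 1, with the fewest genes per cell, gave 1 of the 20 cells with all 3 and 15 of the 59 with none.

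**Figure D4:**
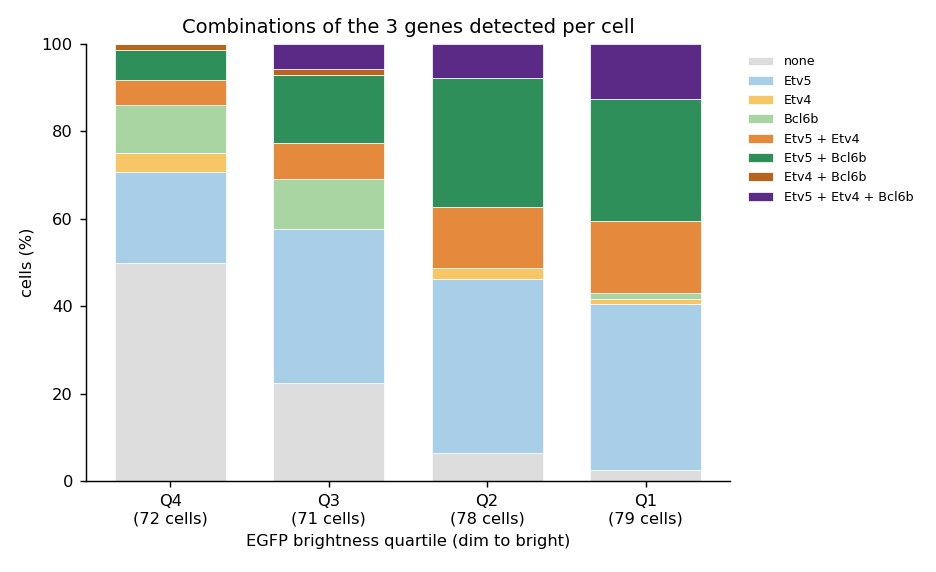
Stacked bars give the percentage of cells (y axis) of each quartile (x axis, dim to bright) in each of the 8 combinations of the 3 genes at 1 FPKM or more. Cells with none are 36 of 72 in Q4 and 2 of 79 in Q1, and cells with all 3 make up 12.7% of Q1.

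Set against the receptor transcripts, Etv5 was detected in 115 of 119 cells (96.6%) that held both Gfra1, the GDNF co-receptor, and Ret, its kinase partner, in 41 of 55 cells (74.5%) with Gfra1 only, in 34 of 59 (57.6%) with Ret only and in 26 of 67 (38.8%) with neither. This order is pooled and held in preparations 3 and 4. In preparation 1 the share was 64.3% with Gfra1 only and 80% with Ret only. In preparation 2 it was 57.1% both with Ret only and with neither. Since Gfra1 also rose with brightness, the shares within quartiles are given beside: Etv5 was in 88.6% of Q3 cells with Gfra1 and 41.7% of those without, and in 52.4% and 25.5% in Q4. In Q1 these shares were 96.9% and 85.7%, and in Q2 96.2% and 80%. Ret rose with brightness too. Etv5 was in 70% of Q3 cells with Ret and 58.1% of those without, and in 50% and 25% in Q4. In Q1 the shares for Ret were 96.8% and 87.5%, and in Q2 94.1% and 85.2%. Bcl6b was in 43.1% of all cells with Gfra1 and 19.8% of cells without, higher with Gfra1 in 4 of 4 quartiles, whereas for Ret its pooled shares were 34.3% with and 31.97% without. Within quartiles Bcl6b was in 42.9% of Q1 cells with Ret and 37.5% without, but the order turned in Q2 (35.3% and 40.7%), Q3 (32.5% and 35.5%) and Q4 (12.5% and 22.9%). Etv4 was in 26.4% of all cells with Gfra1 and 12.7% without, and the gap was smaller within Q2, Q3 and Q4. In Q2 it was in 14 of 53 cells with Gfra1 and 5 of 25 without. In Q3 these counts were 6 of 35 and 5 of 36, and in Q4 3 of 21 and 5 of 51. The gap was wide in Q1, at 23 of 65 and 1 of 14 cells. These are shares over cells of shared preparations, given with no test.

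**Figure D5:**
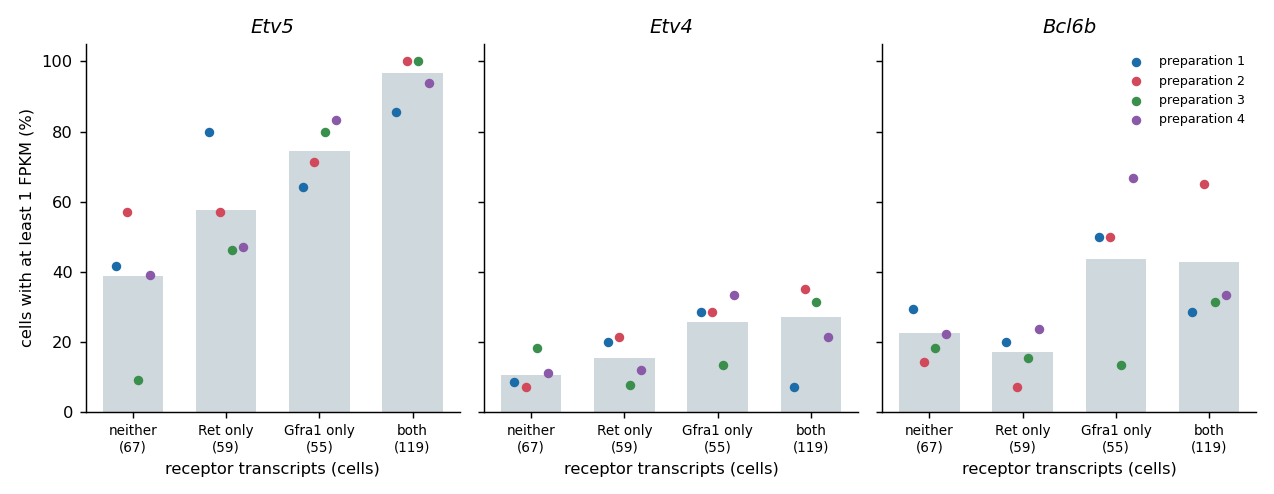
Grey bars give the percentage of cells that detected each gene (y axis) among cells with neither receptor transcript, Ret only, Gfra1 only or both (x axis, with the number of cells), and coloured points give the same in each preparation. Etv5 runs from 38.8% with neither to 96.6% with both.

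The other genes of the pathway fell into groups that differed in how many members followed brightness, and the test for each was the slope over quartiles (limma, adjusted over 10411 genes, 4.25% of all genes called in either direction). Of 7 GDNF family receptor genes 5 passed the filter on low values and 3 rose: Gfra1 by 1.13 per quartile (SE 0.12), Ret by 0.65 (SE 0.11), and Ncam1, an alternative GDNF co-receptor, by 0.27 (SE 0.08), a call lost in 11 of 12 alternative settings. Of 2 tested FGF receptor genes 0 passed in limma, also without adjustment, and Fgfr1 had a slope of -0.06 (limma adjusted p = 0.817). Of 28 tested genes of the signal relay 1 rose and 1 fell: Fyn, a SRC family kinase, rose by 0.63 per quartile (SE 0.13), a call lost without preparation 3 and with log2 of mean FPKM, and Akt1 fell by 0.39 (SE 0.10), a call lost in 9 of 13 alternatives. Among the ligands Gdnf, Artn and Pspn were each in 2 of 300 cells, Gdf15 in 15 and Nrtn in 67, and Nrtn, the only 1 of the 5 that passed the filter, had a slope of -0.01 (limma adjusted p = 0.972).

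Of 9 tested feedback inhibitors of the ERK cascade 5 rose and 0 fell (0 also without adjustment in limma), with a median slope of 0.31, and 8 reached an unadjusted p under 0.05 upwards, where 12.9% of all genes did. They included Dusp6, an ERK phosphatase, at 1.44 per quartile (SE 0.13), the Sprouty genes Spry4 at 0.83 (SE 0.10) and Spry2 at 0.75 (SE 0.11), and Dusp5 at 0.22 (SE 0.06), the last lost in 10 of 12 alternatives. Of 11 tested other genes known to respond to GDNF in culture 5 rose and 0 fell (1 fell at an unadjusted p under 0.05 in limma), with a median slope of 0.29. Among them were the immediate early factor Egr2 at 0.88 (SE 0.11), the cell cycle gene Ccnd2 at 0.67 (SE 0.10), the surface tetraspanin Tspan8 at 0.70 (SE 0.13; not called without the replicate block, at a limma adjusted p of 0.0715) and the homeobox gene Lhx1 at 0.45 (SE 0.07). Beside a median slope of 0.03 over all genes tested, the slope of Etv5 at 1.30 was smaller than that of Dusp6 and larger than those of the other genes named from these groups, without a test between them. Tcl1, which is in none of these groups, had a slope of 1.71 (SE 0.14).

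Compared within their families, in FPKM, which is per transcript length, Etv5 was one of the 2 highest of the ETS genes. Its mean over the 4 preparations was 39.96 ± 5.50 FPKM (SD, n = 4; 33.3 to 46.5), beside 42.1 ± 15.8 FPKM for Ets1, and these overlapped. Gabpa, a broadly used ETS activator, followed at 21.3 ± 5.65 FPKM (16.5 to 28.2), below every preparation of Etv5. Etv4 stood at 2.69 ± 1.00 FPKM (1.41 to 3.83), overlapping Fli1 at 3.07 ± 1.07 and Erg at 3.37 ± 1.63, and Etv1, the other PEA3 gene, was found in 4 of 300 cells. Among 11 other tested ETS genes 0 rose with brightness in limma (0 also without adjustment) and 1 fell, Etv6, an ETS repressor, with a slope of -0.37 (SE 0.10, limma adjusted p = 0.0301), a call lost in 7 of 13 alternatives. Ets1, close to Etv5 in mean level, had a slope of 0.20 (SE 0.11, limma adjusted p = 0.374).

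Bcl6b at 10.6 ± 4.84 FPKM (5.60 to 15.4) lay among the middle of its BTB zinc finger relatives, overlapping Zbtb33 at 11.7 ± 4.99 and Hic2 at 10.7 ± 4.27. Zbtb16, the spermatogonial factor PLZF, was higher at 50.5 ± 15.9 FPKM in 268 cells, and Bcl6, the closest relative of Bcl6b, was lower at 1.26 ± 0.917 FPKM in 48 cells, with no overlap with Bcl6b in either case. Of the 9 other BTB zinc finger genes tested 0 passed the adjusted slope test in limma, and 1 reached an unadjusted p under 0.05. Zbtb16 had a slope of 0.27 (SE 0.11, limma adjusted p = 0.171) and Zbtb32 of -0.19 (SE 0.12, limma adjusted p = 0.441).

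For each of the 3 the 5 most similar genes were taken over the 16 means of quartile and preparation, after each preparation's mean was taken out. For Etv5 they were G2e3 (Pearson r = 0.959), a ubiquitin ligase gene, Tcl1 (0.952), Mtus1 (0.949), which codes for a microtubule-associated protein, Rest (0.943), a repressor of neuronal genes, and Map4k4 (0.942), a kinase gene. The nearest to Etv4 were Coro1b (0.864), a coronin that binds actin, Casc4 (0.851), Dnajc25 (0.849), Fgd5 (0.847) and Il1r2 (0.844), a decoy receptor for interleukin 1. Bcl6b was most closely followed by Zmiz1 (0.889), a transcriptional co-regulator gene, Supt7l (0.885), Kif13b (0.877), a kinesin gene, Tnrc6c (0.869), of the microRNA silencing machinery, and Ptprd (0.853), a receptor phosphatase gene. These correlations rest on 16 means that share cells, chips and quartile labels. No gene was in more than 1 of the lists, but lists of 5 from 10411 genes are too short for this to be read as a difference.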

How the data were processed

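Single-cell cDNA was made on C1 chips with SMARTer chemistry and carries no strand information, per the labels' protocols. The authors deposited 1 table of FPKM values. The submitters' processing notes name FastQC, TopHat, Cufflinks and Picard with builds mm10 and GRCm38, and their versions are not given in the sources used here. Read depth per cell is unknown, and 2934 to 7817 genes per cell reached 1 FPKM. The 3 genes, the lists and the tests were chosen with earlier results of these data known. For each of 16 groups (quartile within preparation) the mean of log2(FPKM + 1) over cells was taken, with a pseudocount of 1. Genes with at least 1 FPKM in 30 cells (10411) were fitted with limma 3.58.1 in R 4.3.3, with quartile and preparation as terms, moderated variances with trend and robust settings, and Benjamini-Hochberg adjustment over all genes tested at 0.05. Shares, levels in detecting cells (genes with 3 or more detecting cells in every group, 5984) and co-detection were tested as the mean slope per preparation against all 331776 relabelings of quartiles within preparations (the smallest p possible is 6.03e-06), computed in Python 3.11.15. Quartiles of one number come from the same animals and chip, and their deviations correlated in every pair (0.0112 to 0.360, median 0.129), so preparation was a block. The number in the titles was taken as the preparation. The limma p-values set quartile differences against their spread between the 4 preparations, with preparation means taken out and variances moderated over genes. The permutation p-values come from relabelings within preparations. For each listed group the 4 tested genes with the smallest slope p are named, and for each of the 3 genes the 5 most alike, leaving out predicted genes. Tests were checked on simulated data. Hras was matched by an older symbol, as were the macrophage marker Adgre1 and the ETS gene Spi1. Mitochondrial genes and Id4 were not analysed here. Alternatives were other pseudocounts (0.1, 10), filters, detection limits (above 0, 10 FPKM), median centring, detected genes as a covariate, log2 of mean FPKM, no replicate block, and each preparation left out. Leaving out cells with markers of another type was added after seeing the data.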

Additional observations from a re-analysis of the deposited data

How the results depend on the processing

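Etv5 kept its direction and call in the Q1 against Q4 difference (1.84 to 5.52, limma adjusted p at most 0.00159) and in the slope (0.65 to 1.92) under all 13 alternatives. Its share slope kept an unadjusted exact p under 0.05 under 8 alternatives and its level slope under 6. A p adjusted over all genes was computed for 2 and 1 of these, the other detection limits, and stayed under 0.05 (share 0.0148 and 0.0228, level 0.0412). Without the replicate block the Etv5 slope was 1.30 and still called, but the genes called fell from 338 to 99 for Q1 against Q4 and from 442 to 147 for the slope. These counts were 177 and 249 with no expression filter, 135 and 189 with detected genes as a covariate, 80 and 128 with log2 of mean FPKM, and 137 to 270 and 187 to 332 with 1 preparation left out. Centring each mean on its median gene moved the median Q1 against Q4 difference of all genes from 0.10 to -0.08 and the split of calls from 283 higher and 55 lower to 145 and 106. Under it the difference was 3.57 for Etv5, 0.41 for Etv4 and 0.72 for Bcl6b. The cause was not tested for any of these.

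At a detection limit of 10 FPKM the slope of the Etv4 share was 2.55 points, that of Etv5 with Etv4 was 2.66 and that of Etv4 with Bcl6b was 0.745, none of which passed. With 1 preparation left out the share slopes ran from 4.65 to 9.18 for Etv4, 4.62 to 8.52 for Bcl6b and 1.68 to 5.15 for Etv4 with Bcl6b, and the difference in slope between Etv4 and Bcl6b from -0.13 to 0.056. Some differences that were not called turned sign. With log2 of mean FPKM, Q1 minus Q2 was -0.13 for Etv5 and -0.020 for Etv4, Q2 minus Q3 was -0.20 for Bcl6b, and the slopes of Fgfrl1 and Nrtn were 0.013 and 0.036. With 1 preparation left out, Q1 minus Q2 ran from -0.12 to 0.28 for Etv4, Q2 minus Q3 from -0.061 to 0.43 for Bcl6b and the slope of Nrtn from -0.027 to 0.021. The Nrtn slope was also 0.0029 at a pseudocount of 10, 0.056 with the covariate and 0.0093 without cells of another type. A test of the Etv5 level at 10 FPKM could not be made, since some groups had fewer than 3 detecting cells. Etv4, detected in 62 cells, has no value under the filter of 100 cells. Read depth per cell is unknown, and each share within a preparation rests on 15 to 22 cells.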

Other observations

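In the dimmest quartile Etv5 was unequally placed with respect to Kit, the receptor of differentiating spermatogonia: 6 of 34 Q4 cells with Kit (17.6%) and 18 of 38 without it (47.4%) detected Etv5. In Q3 these shares were 52.2% and 70.8%, while in Q1 they were 100% and 93.5%. Etv4 was in 0 of 34 Q4 cells with Kit, which allows a share of up to 8.82%, and in 8 of 38 without, while in Q1 it was in 7 of 17 with Kit (41.2%) and 17 of 62 without (27.4%). Bcl6b showed a smaller gap, with 17.6% and 21.1% in Q4. For Stra8, a retinoic acid-induced gene, the pooled shares were 37.8% with and 24.2% without for Bcl6b, and 68.7% and 78.8% for Etv5. Neither order held throughout: Etv5 was in 94.3% of Q2 cells with Stra8 and 84% of those without, and in preparation 2 in 81.1% and 79.3%. In preparation 3 Bcl6b was in 21.1% of cells with Stra8 and 24.2% of those without. These are shares over cells that share preparations, chosen after their values were seen and given with no test.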
